A study of Arabidopsis thaliana with 16 samples.

Results

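The 84 probe sets described here were higher with estradiol in every amiR-tor line of Arabidopsis thaliana at both 3 and 6 days, while in the empty vector they were higher by less than 0.3 (log2), unchanged in value or lower. They were chosen from 13701 probe sets with a signal of log2 4 or more on 3 or more arrays, out of 22810 on the array. The choice asked for an induced minus non-induced difference of at least 0.4 (log2) in each of 6 amiR-tor pairs of arrays and of under 0.3 in both empty-vector pairs, which 89 probe sets met (0.65% of 13701). Of these, 5 were left out by name: UF3GT, GAMMA-VPE, ALPHA-VPE, SBT3.5 and AT1G09500. Because these differences chose the members, they are given below as a description with no test.

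All plants were transgenic seedlings of the Col-0 background, germinated on hygromycin in continuous light and moved at an age of 2 weeks to fresh MS plates. The induced amiR-tor group (20 µM estradiol) and the non-induced amiR-tor group (no estradiol) each had lines 9, 17 and 20 at 3 days and at 6 days, with 1 array per line, treatment and day. These lines carry an artificial microRNA against the TOR kinase gene behind an estradiol-inducible promoter. The empty-vector seedlings (pER8, EV) had 1 array with estradiol and 1 without at each day, so the EV has no replicates. The 3 lines serve as replicates (n = 3) within each day and treatment in the fits of the day and of induction. Unless the line is a block or the days are averaged, those fits treat the arrays of 1 line as independent. The fits between lines take the days as repeats. Nothing in the labels says that the arrays came from separate cultures. The p-values below cover only the spread between these arrays, which may be technical. The names used here list 0 probe sets for TOR, and how far it was silenced was not analysed. Sample descriptions also disagree with the titles in places, and the groups follow the titles.

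TOR is a protein kinase that couples growth to nutrient and energy supply. In plants its activity favours protein synthesis, ribosome production and cell proliferation, and its loss is known to slow growth and to raise autophagy and nutrient recycling. Protein breakdown, starch and lipid turnover and the use of amino acids as fuel are processes linked to low TOR activity. The members are ordered by role below, with some roles outside these processes. The share of each role over all probe sets was not computed, so no theme is read from the groups.

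The deposited values were GCRMA log2 signals, with array medians between 5.6 and 5.68. The arrays were of 2 kinds: the 25S ribosomal RNA control read 5.27 to 6.66 on 6 arrays and 11.38 to 11.99 on the other 10, and the actin 5′ minus 3′ control difference was -10.39 to -4.47 on the 6 and -1.92 to -1.43 on the 10. The low-25S arrays comprised the 2 induced ones of line 9 and, at 3 days, every array of lines 17 and 20. In line 9, induction and the kind of array cannot be told apart, whereas each pair of lines 17 and 20 lies within 1 kind. In lines 17 and 20 the kind of array instead changes with the day. Of the markers fixed for whole seedlings, RCA of green shoots (1 of 8 loci listed) read 14.41 to 14.68, and PYK10 and AT5G17820 of roots (2 of 5 listed) read 13.08 to 13.70 and 8.22 to 9.82. None of the 4 floral markers was listed.

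Of the 84 members, 43 were listed with 1 gene (51.2%, against 53.6% of the 13701), 1 with several genes and 40 with none. A role could be given for 36 of the 43. The 43 loci lay on all 5 chromosomes, with 13, 5, 7, 7 and 11 on chromosomes 1 to 5. The closest neighbours among them were AT1G76390 and AT1G76470, with 9 protein-coding genes between them in the TAIR10.1 gene table. Unlisted probe sets are named by their array identifier, and any of them could carry a gene that was meant to be left out.

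The mean of the 6 induced minus non-induced differences lay between 0.48 and 2.93 over the 84 members, with a median of 1.03. The median over the 13701 probe sets was 0.03. Of the members, 46 had a mean of at least 1 and 9 a mean of at least 2. Without estradiol the median member read 6.76 in the lines, against 7.78 for the 13701, and the members' levels ran from 2.59 to 10.58. In 13 members the non-induced mean was under 4, and in 8 of them all 6 non-induced arrays were under 4. For such dim probe sets GCRMA compresses differences near its floor of 2.12, so their differences are measured values and not exact sizes, and ranks that include them are only those of the measured values. Arrays of whole seedlings cannot tell more cells of a type apart from more RNA per cell.

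**Figure D1:**
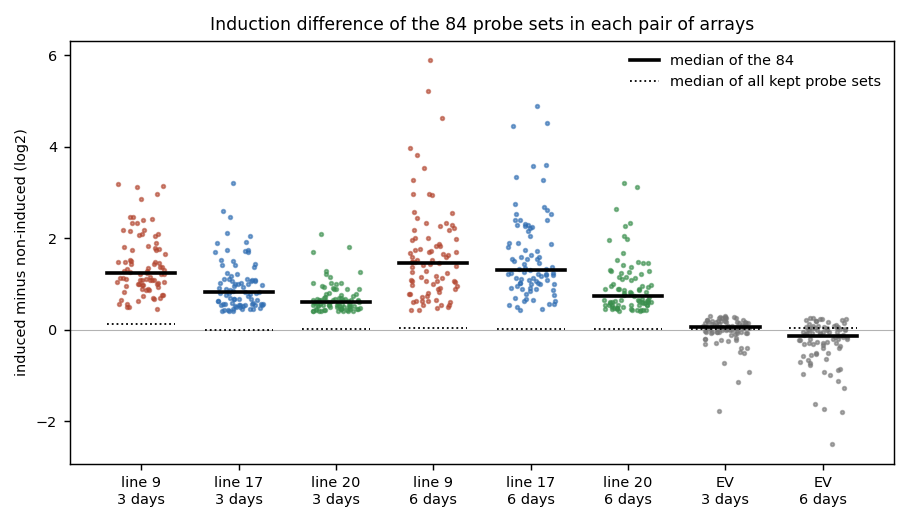
Induced minus non-induced difference (log2) of each of the 84 members in each pair of arrays, with lines 9, 17 and 20 and the empty vector at 3 and 6 days. The member medians were 1.25, 0.82 and 0.61 for lines 9, 17 and 20 at 3 days, and 1.47, 1.31 and 0.75 at 6 days, against 0.06 and -0.13 for the empty vector.

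The 4 members for oxidoreductases, enzymes that move electrons between molecules, had a median of 1.70 for the mean of the 6 differences. The groups were drawn after the values were seen, and AT1G76470 and AT5G06730 of this one averaged under log2 4 without estradiol. The group had medians of 1.40 at 3 days and 2.00 at 6 days, and in all 4 the mean over the lines was larger at 6 days. AT1G76470, a cinnamoyl-CoA reductase-like protein, read 5.93, 4.75 and 3.55 on the induced arrays of lines 9, 17 and 20 at 3 days, against 2.78, 2.85 and 3.08 on the non-induced ones. At 6 days it read 7.47, 6.81 and 4.77 on the induced arrays, against 2.85, 2.36 and 2.51 without estradiol. All 6 induced values of this gene were above all 6 non-induced values, and line 20 was the lowest induced line at both days. The EV read 3.08 with estradiol and 3.37 without at 3 days. The mean difference of AT1G76470 was 2.81 ± 1.30 (SD over 3 lines). Here and below, this SD is taken over the line means, each averaged over both days, so it leaves out the spread between days.

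AT5G06730, a class III peroxidase, read 5.37, 4.77 and 4.76 in induced lines 9, 17 and 20 at 3 days, against 2.98, 3.36 and 3.98 in the non-induced lines. The 6 day values were 5.49, 6.39 and 5.13 with estradiol and 4.70, 2.81 and 3.09 without. Line 17 had the widest gap at 6 days and line 9 the narrowest, and the non-induced array of line 9 stood above those of the other lines. AT2G34810, a berberine bridge enzyme-like oxidase, had a mean difference of 1.57 ± 0.67 (SD over 3 lines), and AT3G04000, an aldehyde reductase of the chloroplast, one of 1.29 ± 0.64.

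Among the genes of protein breakdown, 6 members had a median mean difference of 0.99. The largest was that of AT2G25625, a protein of chloroplast vesiculation, a route by which plastid proteins reach the vacuole. Its induced lines read 7.33, 7.65 and 7.38 at 3 days, against 5.90, 5.54 and 6.77 in non-induced lines 9, 17 and 20. Its 6 day values were 9.04, 8.62 and 8.47 with estradiol, against 5.51, 6.56 and 6.94 without it. Every induced line was above every non-induced line at both days, and the mean difference was 1.88 ± 0.73 (SD over 3 lines). In the EV it read 5.88 with estradiol and 6.39 without at 6 days.

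SBT3.3, a subtilisin-like protease, read 5.01, 4.03 and 4.24 in induced lines 9, 17 and 20 at 3 days, against 3.65, 3.54 and 3.75 in the non-induced lines. At 6 days the induced lines gave 5.79, 5.29 and 4.24, against 4.21, 3.75 and 3.38. This gene was dim without estradiol, and its mean difference was 1.05 ± 0.40 (SD over 3 lines). SBT4.12, another protease of that family, was bright in all arrays and read 10.70, 10.01 and 10.01 at 3 days in the induced lines, against 8.60, 9.58 and 9.42. Its 6 day values were 10.34, 9.87 and 9.38 in the induced lines and 9.28, 8.44 and 8.91 in the non-induced lines. The groups overlapped at neither day taken alone, line 9 gave the widest gap at 3 days and line 17 at 6 days. Its mean difference was 1.01 ± 0.53 (SD over 3 lines).

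PUB43 encodes a U-box ubiquitin ligase, which marks proteins for breakdown. In the induced lines 9, 17 and 20 it read 8.41, 8.20 and 7.81 at 3 days, against 6.64, 7.58 and 7.41 without estradiol. After 6 days it read 8.44, 8.36 and 7.51 in the induced lines, against 7.83, 7.0 and 6.91. The 6 day groups overlapped, since induced line 20 lay below non-induced line 9, and the mean difference was 0.89 ± 0.36 (SD over 3 lines). The other 2 members of this group were AT4G04460, a saposin-type aspartic protease, with 0.96 ± 0.48, and AT5G05110, a cystatin that inhibits papain-type cysteine proteases, with 0.77 ± 0.19.

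The 6 members for lipids and membranes had a median mean difference of 0.98, with 0.81 at 3 days and 1.16 at 6 days. AAE16, an acyl-activating enzyme that joins fatty acids to a carrier, read 5.0, 5.41 and 4.98 in induced lines 9, 17 and 20 at 3 days, against 4.44, 4.47 and 4.47 in the non-induced lines. At 6 days it read 6.07, 7.01 and 6.07 in the induced lines, against 4.93, 4.47 and 4.70. The groups were apart at both days, line 17 was the highest induced line each time, and the mean difference was 1.18 ± 0.49 (SD over 3 lines).

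AT4G39670, a glycolipid transfer protein, had the largest mean difference of the lipid group, 1.49 ± 0.65 (SD over 3 lines). AT1G67360, a protein of lipid droplets, had 1.01 ± 0.41, and AT3G25610, a phospholipid flippase, had 0.96 ± 0.52. The remaining 2 were the Sec14-type lipid transfer proteins AT3G46450 and AT4G36640, with 0.96 ± 0.35 and 0.70 ± 0.18.

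The 4 carbohydrate genes had a median mean difference of 0.77. PWD, the phosphoglucan water dikinase that opens starch granules to breakdown, read 7.32, 7.78 and 7.73 in induced lines 9, 17 and 20 at 3 days, against 6.46, 7.02 and 7.27 without estradiol. Its 6 day values were 7.69, 6.63 and 6.55 with estradiol and 6.77, 5.88 and 5.94 without. The induced lines 17 and 20 at 6 days lay below the non-induced line 9, so the 6 day groups overlapped. PWD was brighter on low-25S arrays, and its difference was 0.43 with the kind of array in the fit, against 0.73 ± 0.18 (SD over 3 lines) without it.

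AT3G57380, a glycosyltransferase of family 61, was under log2 4 without estradiol and had a mean difference of 1.30 ± 0.64 (SD over 3 lines). AT5G51830, a fructokinase that phosphorylates fructose, had 0.81 ± 0.27, and AT2G16790, a gluconokinase, had 0.72 ± 0.20.

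The 4 members for amino acids and transport had a median mean difference of 0.67. ETFALPHA, the alpha subunit of the electron transfer flavoprotein, passes electrons from the breakdown of branched-chain amino acids to the respiratory chain. It read 8.63, 8.45 and 8.29 in induced lines 9, 17 and 20 at 3 days, against 7.93, 7.71 and 7.87 in the non-induced lines. After 6 days it read 8.69, 8.61 and 8.48 in the induced lines, against 7.63, 8.11 and 8.04. All 6 induced values were above all 6 non-induced values, and the mean difference was 0.64 ± 0.23 (SD over 3 lines).

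AT5G38710, a proline dehydrogenase of the first step of proline breakdown, had a mean difference of 0.85 ± 0.02 (SD over 3 lines). The small SD hides the spread between days: its pair differences ran from 0.54 to 1.16, both in line 20, and the limma SE was 0.296. In the EV at 6 days the same gene read 5.57 with estradiol, against 7.31 without. AT3G56200, an amino acid transporter, had 0.69 ± 0.13, and AT1G72140, a transporter of the NRT1/PTR family, had 0.59 ± 0.05.

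Among the 6 members for signalling and regulation, with a median mean difference of 1.0, bZIP44, a transcription factor, sat at the limit of the choice. It read 8.88, 8.33 and 8.43 in induced lines 9, 17 and 20 at 3 days, against 7.13, 7.93 and 7.93 without estradiol. At 6 days it read 8.85, 9.02 and 8.31 in the induced lines, against 8.42, 7.85 and 7.91. The differences of 0.40 in line 17 at 3 days and in line 20 at 6 days were close to those of its EV pairs, 0.28 and 0.25, and the mean difference was 0.78 ± 0.32 (SD over 3 lines).

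MOL1 encodes a receptor-like kinase of the cambium. In induced lines 9, 17 and 20 it read 5.66, 5.31 and 5.47 at 3 days, against 4.44, 4.75 and 4.79, and at 6 days 5.17, 4.62 and 4.44, against 4.44, 3.83 and 3.97. Induced line 20 and non-induced line 9 read the same at 6 days, and the mean difference was 0.74 ± 0.21 (SD over 3 lines). AT5G53420, a CCT-domain protein, had 1.42 ± 0.62, AT5G02420, an inhibitor of cyclin-dependent kinases of the SIAMESE type, which restrains cell division, had 1.39 ± 0.87, and AT4G31860, a type 2C protein phosphatase, had 1.04 ± 0.40. The protein kinase AT1G07870 had 0.97 ± 0.42.

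A further 6 members with a role fell in no group and had a median of 0.82. They were AT2G41380, a methyltransferase (1.24 ± 0.30, SD over 3 lines), AT1G74010, a strictosidine synthase-like protein (1.22 ± 0.48), the tolB-like AT4G01870 (0.83 ± 0.08), the phosphoglycerate mutase-like AT1G08940 (0.82 ± 0.30), the NTF2-like AT5G04830 (0.79 ± 0.23) and AT4G30490, an AFG1-type ATPase (0.71 ± 0.30). For 7 loci no role was given: AT4G19430, AT2G41730, AT1G17830, AT5G23850, AT3G19660, AT1G75730 and AT1G03290.

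**Figure D2:**
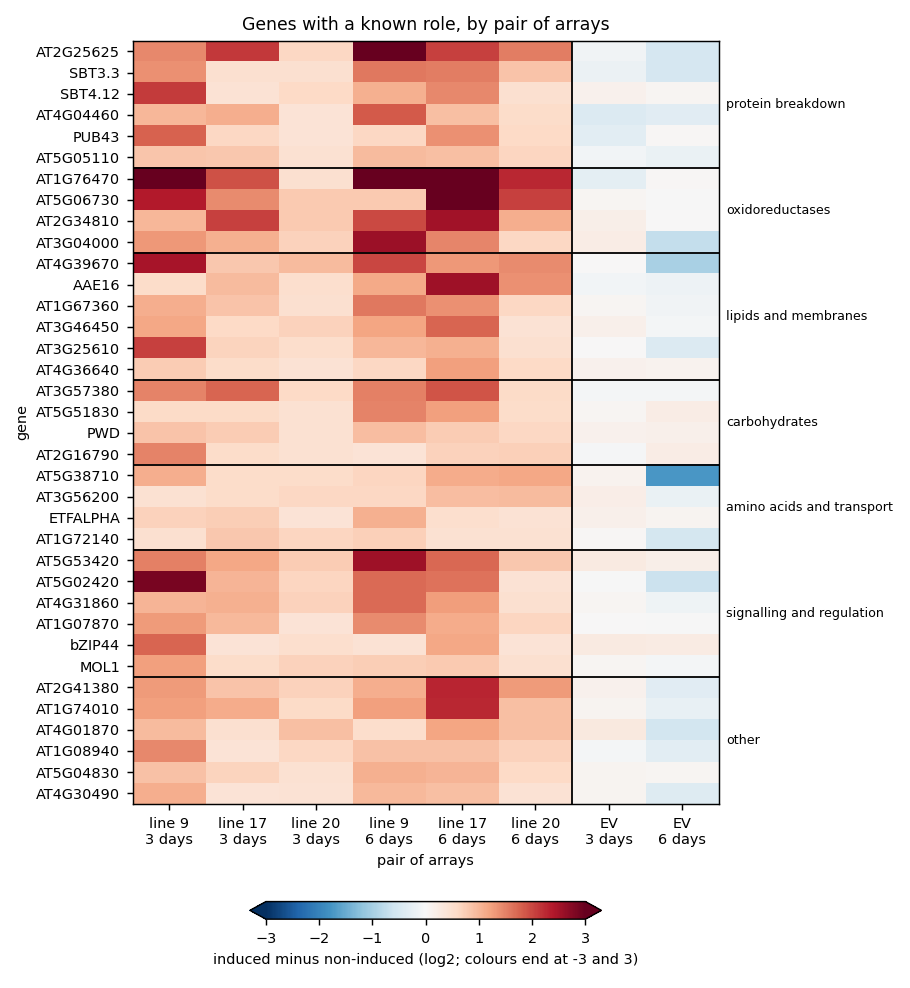
Induced minus non-induced difference (log2) of the 36 members with a role, by role group, in each pair of arrays of the lines and of the empty vector. The group medians of the mean of the 6 amiR-tor differences ran from 0.67 for amino acids and transport to 1.70 for oxidoreductases. Of the oxidoreductases, 2 were under log2 4 on average without estradiol.

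The 41 members without a single listed gene had a median mean difference of 1.24 and held 8 of the 10 largest measured ones. The first of these, 266270_at, read 5.51, 4.62 and 5.46 in induced lines 9, 17 and 20 at 3 days, against 3.41, 3.53 and 3.36 in the non-induced lines. After 6 days it read 8.15, 7.09 and 6.34 in the induced lines, against 2.25, 3.82 and 3.22. All 6 induced values were above all 6 non-induced values, and its mean difference was 2.93 ± 0.95 (SD over 3 lines). Every non-induced line was under log2 4, and no fold is given for that reason.

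The evenest of the large members was 252984_at. It read 9.20, 8.74 and 9.41 in induced lines 9, 17 and 20 at 3 days, against 7.39, 7.30 and 7.6, and 11.10, 11.23 and 10.83 at 6 days, against 7.28, 7.63 and 7.63. The lines lay close together within each group, and the mean difference was 2.61 ± 0.18 (SD over 3 lines).

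In 250083_at the lines spread widely. It read 3.68, 4.33 and 4.85 in induced lines 9, 17 and 20 at 3 days, against 2.92, 2.92 and 4.31, and 8.84, 7.42 and 5.10 at 6 days, against 3.62, 2.90 and 3.63. Induced line 9 lay below non-induced line 20 at 3 days, and the mean difference was 2.32 ± 1.14 (SD over 3 lines).

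AT4G19430, the listed locus without a given role that had the largest difference, read 7.39, 8.71 and 7.70 in induced lines 9, 17 and 20 at 3 days, against 5.06, 5.51 and 7.30. At 6 days it read 9.21, 7.95 and 7.66 in the induced lines, against 5.24, 5.2 and 6.50. Line 20 was the highest of the non-induced lines at both days, and the mean difference was 2.30 ± 1.32 (SD over 3 lines).

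The member 264400_at read 5.19, 7.13 and 7.72 in induced lines 9, 17 and 20 at 3 days, against 4.56, 4.67 and 6.56, and 8.50, 9.57 and 8.24 at 6 days, against 5.53, 4.67 and 6.97. Line 17 had the widest gap at both days, the 3 day groups overlapped, and the mean difference was 2.23 ± 1.29 (SD over 3 lines). For 260405_at the induced lines read 5.74, 5.56 and 4.65 at 3 days, against 2.78, 3.85 and 4.16, and 7.26, 6.28 and 5.02 at 6 days, against 5.5, 2.95 and 2.38. Its EV arrays read 5.19 with estradiol and 6.97 without at 3 days, the second above every line, and the mean difference was 2.15 ± 0.51.

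The probe set 254741_s_at was near the floor without estradiol. It read 4.93, 5.66 and 4.70 in induced lines 9, 17 and 20 at 3 days, against 2.59, 3.07 and 3.69, and 6.08, 4.53 and 3.99 at 6 days, against 3.11, 2.64 and 2.32. Induced and non-induced lines were apart over both days, the EV stayed between 2.63 and 2.73, and the mean difference was 2.08 ± 0.67 (SD over 3 lines).

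In induced lines 9, 17 and 20, 260706_at read 7.11, 6.65 and 6.67 at 3 days, against 4.93, 5.69 and 4.98, and 10.19, 8.35 and 7.10 at 6 days, against 7.25, 6.13 and 4.76. Its 6 day groups overlapped, since induced line 20 lay below non-induced line 9, and the mean difference was 2.06 ± 0.49 (SD over 3 lines). The last of the 10 largest, 265221_s_at, read 7.24, 6.18 and 5.17 at 3 days, against 4.06, 4.49 and 4.27, and 7.93, 7.01 and 5.74 at 6 days, against 5.63, 4.76 and 4.78. Line 20 was the lowest induced line at both days, and the mean difference was 1.88 ± 0.91. The remaining unlisted members had mean differences from 0.48 (253531_at) to 1.75 (249942_at).

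**Figure D3:**
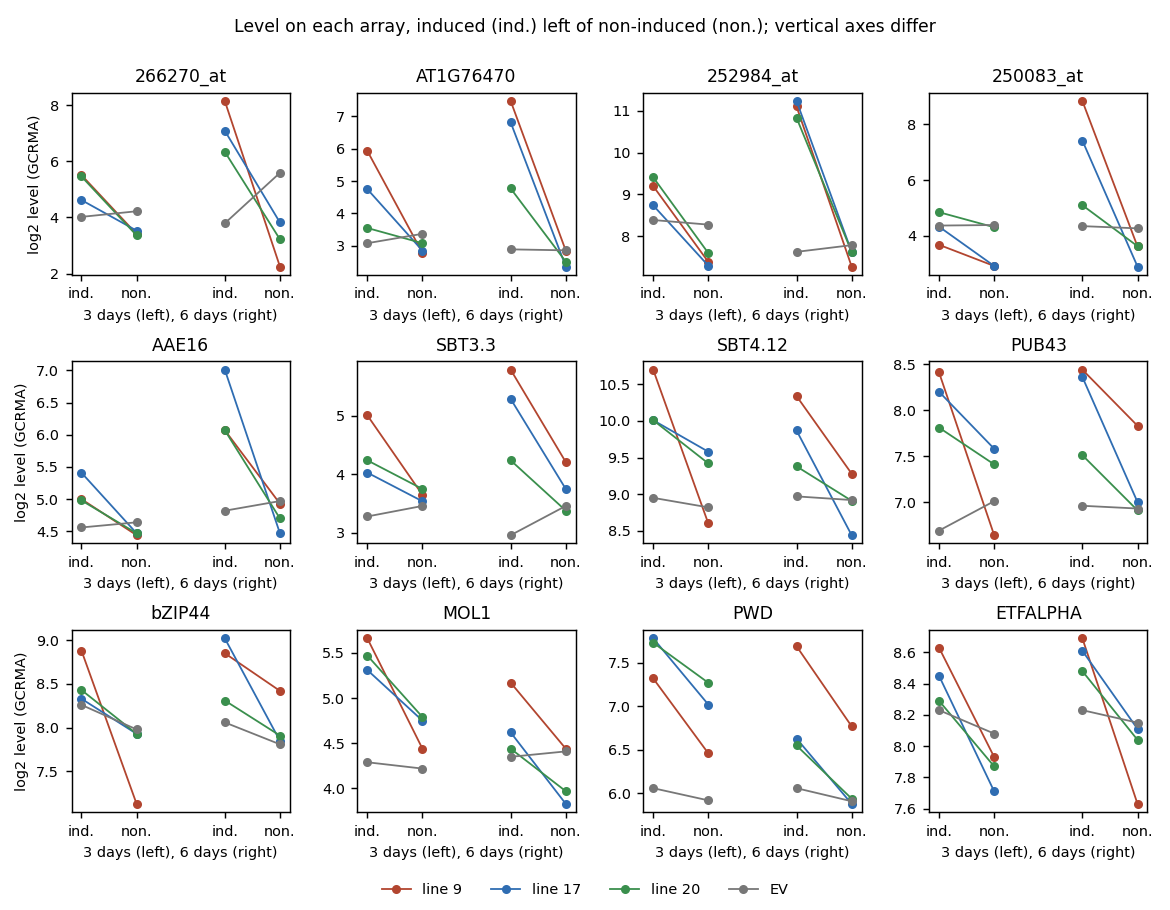
Deposited log2 level of named members on each of the 16 arrays, with induced beside non-induced arrays at 3 days (left) and 6 days (right). In AT1G76470 the induced lines reached 7.47 at 6 days, against at most 2.85 in the non-induced lines at that day.

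The members' medians, by line, were 1.36 in line 9, 1.04 in line 17 and 0.67 in line 20 for the mean of both days. Line 20 had the lowest of the 3 differences in 54 members at 3 days and in 65 at 6 days, and line 9 the highest in 63 and in 48. Ties were given to the first line in the order 9, 17 and 20. The same shares over all probe sets were not computed, so nothing is read from these counts. Over all 13701 probe sets, 35% and 30.0% reached 0.4 in line 9 at 3 and 6 days, 15.8% and 19.1% in line 17, and 9.4% and 10.4% in line 20. In the 4 pairs of lines 17 and 20, each within 1 kind of array, the members' median was 0.87, with means from 0.46 to 2.51.

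The line differences were fitted with limma on the 12 amiR-tor arrays, with the day as a covariate. The arrays of a line and treatment at different days served as the repeats. The p-values and intervals of these fits therefore cover the spread between days within a line, not that between replicates. In lines 17 and 20 that spread also spans both kinds of array. The choice set 1 minimum for all lines on the same pair differences, and the lines differ in how many of all probe sets reach it, so the choice itself partly fixes the sign of the members' line differences and nothing is read from their shares and medians. For line 9 minus the mean of lines 17 and 20, 0 of the 84 members passed a Benjamini-Hochberg adjusted p of 0.05 (limma), where 5.99% of the 13701 did (2.39% higher and 3.61% lower in line 9), and 10 members had an unadjusted p under 0.05, against 27.9% of the 13701. The difference was positive in 75 members, against 56.2% of all probe sets, with a median of 0.41 against 0.09. The largest by limma's statistic was 265221_s_at, at 1.29 ± 0.35 (SE, 95% interval 0.49 to 2.09, limma adjusted p = 0.064). Next was the cell cycle inhibitor AT5G02420, at 1.34 ± 0.36 (95% interval 0.51 to 2.16, limma adjusted p = 0.0645), followed by 246197_at (0.99), 254673_at (0.74) and 261934_at (0.68). The most negative by that statistic were AAE16 (-0.49), AT3G56200 (-0.22), 264400_at (-0.65), AT4G01870 (-0.14) and AT5G06730 (-0.36). The part of the kind of array in the line 9 differences was not tested, as the 2 move together.

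Between lines 17 and 20, no member and no other probe set passed (0% of 13701 by limma, with 315 or 2.3% at an unadjusted p under 0.05, of which 8 were members). The difference was positive in 71 members, against 48.1% of all probe sets, with a median of 0.34 against -0.01. The glycosyltransferase gene AT3G57380 had the smallest p among the members, at 1.22 ± 0.20 (SE, 95% interval 0.77 to 1.67, limma adjusted p = 0.587). Its differences were 1.74 in line 17 and 0.60 in line 20 at 3 days, and 1.88 and 0.58 at 6 days. Next by limma's statistic came AT2G34810 (1.34), AT4G19430 (2.20), 265221_s_at (1.04) and 264505_at (1.15). The most negative were AT3G19660 (-0.29), 260706_at (-0.43), AT2G41730 (-0.27), 266270_at (-0.43) and AT4G39670 (-0.12).

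Between days, the members' median difference was 0.93 at 3 days and 1.23 at 6 days. More members had the larger difference at 6 days in each line: 50 in line 9, 68 in line 17 and 58 in line 20, against 46.9%, 50.8% and 49.0% of all probe sets. In 32 members this held in all 3 lines (12.7% of all probe sets), and in 3 the difference was smaller at 6 days in all 3 lines: AT1G75730, 263777_at and 264042_at. The 6 day minus 3 day difference was positive in 64 members, against 47.7% of all probe sets, with a median of 0.25 against -0.01. The 3 and 6 day differences chose the members, so these counts and medians are a description and no day effect is read from them.

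The limma test of the day difference on all 16 arrays called 0 of the 84 members and 0% of the 13701 after Benjamini-Hochberg adjustment, and an unadjusted p under 0.05 was found for 234 probe sets (1.7%), of which 6 were members. The smallest p among the members was that of 252984_at, at 1.85 ± 0.28 (SE, 95% interval 1.24 to 2.47, limma adjusted p = 0.269). Its differences were 1.81, 1.44 and 1.81 in lines 9, 17 and 20 at 3 days, and 3.82, 3.6 and 3.20 at 6 days, so every line was larger at 6 days. The others named by limma's statistic were 266270_at (2.33), AAE16 (1.01 ± 0.35 SE), 266292_at (1.05) and 254299_at (0.65), each with a limma adjusted p of 1.0. On the negative side were AT1G75730 (-0.69), 246682_at (-0.35), 247554_at (-0.51), AT2G16790 (-0.22) and 254673_at (-0.18). In lines 17 and 20 the day and the kind of array cannot be told apart.

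**Figure D4:**
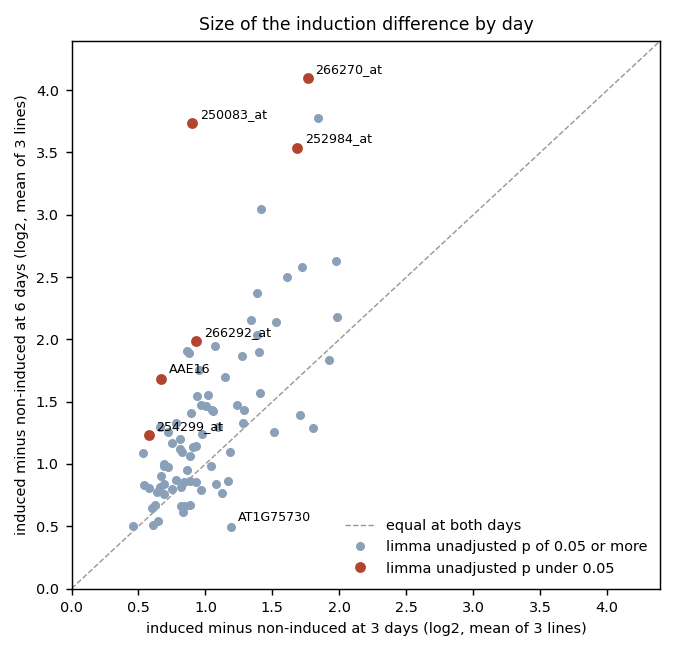
Mean induced minus non-induced difference over 3 lines (log2) of each member at 3 days (horizontal axis) and at 6 days (vertical axis). Of the 84 members, 64 lie above the line of equal values, with 266270_at highest at 6 days.

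In the empty vector the members' median difference was 0.06 at 3 days and -0.13 at 6 days, and 53 members stayed within 0.3 of 0 in both pairs. The choice capped these differences at the upper side only. With estradiol, 22 members were lower by at least 0.4 in the EV at 6 days (26.2%), against 7.8% of the probe sets that met the EV limits, and 7 at 3 days (8.3%, against 5.9%). The widest at 6 days was 260706_at, which read 6.08 in the EV with estradiol and 8.59 without. The EV has 1 array per condition, so this has no replicate check.

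The non-induced EV array stood above all 3 non-induced lines in 39 members at 3 days and in 38 at 6 days, against 22.9% and 18.5% of all probe sets. It stood below them in 10 and 3 members, against 24.3% and 22.3%. All 3 induced lines were above both EV arrays in 60 members at 3 days (28.2% of all probe sets) and in 67 at 6 days (17.7%). The induced lines lay above the non-induced lines with no overlap in 72 members at 3 days (12.5% of all probe sets) and in 62 at 6 days (11%), and in 35 over both days (2.34%). The choice used the induced and non-induced lines of these counts, so nothing is read from them.

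In the limma contrast over both days, 304 probe sets were higher with induction (2.22%) and 86 lower (0.628%). Of the members, 55 of 84 were among these, a contrast that the choice used and from which nothing is read. Under other settings fewer members were called by limma, as were fewer of all probe sets. With the kind of array as a covariate 15 were called (61 of all 13701 probe sets). Without the low-value filter 18 were called (88 of 22746), and without line 20 there were 44 (379 of 13701). Only 1 each was called with the days averaged per line (6 of 13701), without line 9 (6 of 13701) or without line 17 (1 of 13701). Members just inside its limit were 253531_at, 258563_at and bZIP44, each with a lowest difference of 0.40, and just outside were SKP2A, 262947_at and 255360_at, each at 0.39 in line 20 at 3 days. Their mean differences were 0.48, 0.62 and 0.78 inside and 1.05, 0.85 and 0.83 outside. In 39 of the 84 members, line 20 at 3 days set the lowest difference.

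Lists of genes around the members' roles were read in the same contrast, leaving out the members. The lists were chosen with earlier results of these data known, and the arrays are the same. Their p-values are therefore no independent support for the members' roles. Among genes for detoxification of reactive carbonyls and xenobiotics (5 of 14 loci listed and kept), 2 rose and none fell. AER, an alkenal reductase, differed by 1.57, 1.0 and 0.38 in lines 9, 17 and 20 at 3 days and by 1.56, 1.28 and 0.66 at 6 days, against 0.11 and 0.28 in the EV, with a mean of 1.08 ± 0.18 (SE, limma adjusted p = 0.0194). NQR, a quinone reductase, differed by 1.10, 0.77 and 0.44 at 3 days and by 0.51, 0.49 and 0.38 at 6 days, against 0.05 and 0.00 in the EV, with a mean of 0.62 ± 0.11 (SE, limma adjusted p = 0.0198). Both genes missed the choice of members only in line 20, at 0.38. The limma adjusted p without line 9 was 0.172 for AER and 0.14 for NQR. Without line 17 it was 0.465 for both, and with the kind of array as a covariate it was 0.0634 for both.

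Of the genes known to respond to mitochondrial dysfunction (7 of 16 loci listed, 6 kept after the low-value filter), 2 rose and none fell. AT2G21640 differed by 1.30, 0.77 and 1.28 in lines 9, 17 and 20 at 3 days and by 2.17, 0.80 and 1.03 at 6 days, against 0.86 and 0.42 in the EV, with a mean of 1.23 ± 0.19 (SE, limma adjusted p = 0.0131). The EV difference of this gene at 3 days was larger than that of line 17. AT5G51440, a small heat shock protein of mitochondria, differed by 0.21, 0.58 and 0.85 at 3 days and by 0.84, 1.24 and 1.13 at 6 days, against 0.33 and 0.09 in the EV, with a mean of 0.81 ± 0.19 (SE, limma adjusted p = 0.0482). Blocking on the line gave it a limma adjusted p of 0.0562, and the kind of array as a covariate gave 0.159. The limma adjusted p without line 9 was 0.117 for AT2G21640 and 0.102 for AT5G51440, and without line 17 it was 0.465 for both. Without line 20 it was 0.0471 for AT2G21640 and 0.0941 for AT5G51440. Averaging the days per line gave all 4 of these genes of both lists a limma adjusted p of 0.135 to 0.172. Without the low-value filter the limma adjusted p was 0.0618 for AER and 0.117 for AT5G51440, and quantile normalization gave 0.0572 for AT5G51440.

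Glutathione transferases (8 of 29 loci listed, 7 kept after the low-value filter) had none past the limma threshold in either direction. GSTU16 had 0.92 ± 0.26 (SE, limma adjusted p = 0.0727) and GSTU20 had -0.43 (limma adjusted p = 0.156). Of the genes of amino acid breakdown (11 of 22 loci listed and kept), ETFALPHA and AT5G38710 are members and none of the other 9 passed. ETFBETA, which encodes the partner subunit of ETFALPHA, had 0.49 (limma adjusted p = 0.0827), and AT4G33150 of lysine breakdown had 0.60 (limma adjusted p = 0.0935). The list went both ways: with the members included, 6 of the 11 were positive and the median was 0.087. Among the negative ones, ETFQO had -0.55 (limma adjusted p = 0.121), and MCCA, MCCB and IVD had -0.527, -0.245 and -0.157.

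For peroxisomal beta-oxidation 2 of 18 loci were listed, and only AIM1 passed the low-value filter, at 0.27 (limma adjusted p = 0.177). Of the leaf senescence genes 3 of 17 were listed and kept, and none passed the limma threshold. SAG101, a lipase-like gene of senescence, had 0.34 (limma adjusted p = 0.234), and its EV differences were 0.37 and 0.40 at 3 and 6 days. WRKY6, a transcription factor, had 0.32 (limma adjusted p = 0.451). The third, WRKY53, went the other way, at -0.22 (limma adjusted p = 0.619). For the proteasome only RPN12a was listed, 1 of 11 loci, at -0.11 (limma adjusted p = 0.472).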

How the data were processed

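Total RNA of 16 seedling samples was measured on Affymetrix ATH1 arrays of 1 colour. The deposited values are log2 signals that the authors made with GCRMA, per the submitters' processing notes; the version is not given in the sources used here. Precision is limited by the number of arrays. Probe sets were named from the platform table and loci updated through the RefSeq gene table of TAIR10.1, with 13513 of 22746 gene probe sets listed with 1 gene, 503 with several and 8730 not listed. No coordinates and no sequences are given.

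The members and lists were chosen with earlier results of these data known. Control probe sets, and those without a log2 value of 4 or more in 3 arrays or more, were left out. Fits used limma 3.58.1 in R 4.3.3 (lmFit, eBayes, Benjamini-Hochberg over 13701 probe sets, threshold 0.05): 1 mean per group over 16 arrays for days, and 1 mean per line and treatment plus the day over 12 amiR-tor arrays for lines. An EV group has 1 array and adds nothing to the spread. The script was tested on simulated data.

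Named were all members with a symbol, the 10 with the largest mean difference, 3 each side of the limit, up to 5 each way by statistic in each test, and in each list up to 4 others past the threshold or the 2 with the smallest p. Other members are given by role group and were chosen after their values were seen, as were the roles, which are background knowledge. Arrays of 1 line are paired by label: the correlation of their deviations from the group means lay between -0.63 and 0.45 (line 9), -0.16 and 0.17 (line 17) and -0.15 and 0.52 (line 20). Alternatives were other limits, other filters, quantile normalization, the kind of array as a covariate, the line as a block, no EV arrays and each line left out. The highest correlation between 2 arrays was 0.997.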

Additional observations from a re-analysis of the deposited data

Results flagged for a closer look

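Both EV pairs were lower with estradiol, while every amiR-tor pair was higher, in 23 of the 84 members. Their share over all probe sets was not computed, so nothing is read from this count. Of the members named by a symbol or for the size of their mean difference, 6 had this pattern. The difference between the line mean and the EV mean (log2) is given for each of these 6. It was 3.93 for 266270_at, 3.48 for 260405_at, 3.42 for 260706_at, 2.37 for 264400_at, 1.39 for the protease gene SBT3.3 and 1.29 for the acyl-activating enzyme gene AAE16. These differences between the lines and the EV were not tested, and the choice of members fixed the direction in the lines and capped the EV. In 264400_at and AAE16 the EV differences were small, -0.20 and -0.07, and -0.08 and -0.15 at 3 and 6 days.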

How the results depend on the processing

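The number of members was 149 with a difference limit of 0.3, 43 with a limit of 0.5 and 166 without the EV limit. It was 65 with an EV limit of 0.2, 68 with a low-value filter at log2 6 and 77 after quantile normalization, of which 70 were shared. Leaving out a line gave 111 to 314 members, with 314 without line 20, and a median mean difference of the 84 members of 0.87 to 1.24. Among 90 alternative values of 18 named members, 0 changed sign and 1 (PWD with the kind of array as a covariate) moved by more than 1 SD between lines. The choice held every amiR-tor pair difference of a member at 0.4 or more. Leaving out a line therefore could not change a sign, and nothing is read from the count of signs. Nor could leaving out a line move a mean by more than 1 SD between lines. For those settings nothing is read from the count of moves either. For induction over both days, 390 probe sets were called by limma, 61 with the kind of array as a covariate, 88 without the low-value filter and 6 with the days averaged per line (chosen after seeing the data). Leaving out a line gave 1 to 379: 6 without line 9, 1 without line 17 and 379 without line 20. With the line as a replicate block the paired fit gave 571, and it ended the call of AT5G51440 and of no other gene named in the report. The line 9 difference called 821 probe sets, and 218 without the low-value filter. The line 17 minus line 20 difference called 2 on the 8 arrays of these lines alone, against 0 by limma (315 at an unadjusted p under 0.05). The day difference called 0 under every alternative run, block included, with a smallest adjusted p of 0.0511 to 1.0 (limma; 234 at an unadjusted p under 0.05). Leaving out a day was not run for the line differences, since 0 residual degrees of freedom remain. Promoter motifs were not run because no promoter sequences were used here. Members near the floor of 2.12 are limited by low signal.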
